A study of Mus musculus with 12 samples.

Results

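The core pluripotency factors examined here are 7 genes: Pou5f1, which encodes Oct4, Sox2, Nanog, Sall4, Utf1, Lin28a and Fgf4. They were taken by name, with every probe set annotated to them, which gave 8 probe sets for 7 of the 22180 genes that a probe set of the array names alone. Their RNA was measured in mouse embryonic stem cells (mESCs) of the male line E14.wt, of 129P2/OlaHsd background, on 12 expression arrays, 3 in each of 4 groups. In experiment A, cells infected with a lentivirus for a non-target short hairpin RNA (shcontrol_A) were compared with cells given one against Msl1 (shMsl1_A). In experiment B, a second set of such controls (shcontrol_B) was compared with cells given a hairpin against Kansl1 (shNsl1_B), the gene of the protein named Nsl1 in the labels. Msl1 and Nsl1 are subunits of 2 complexes, MSL and NSL, that share the histone acetyltransferase Mof. All cells, controls included, had grown on CD1 feeder cells and were then passaged without them, were infected, were selected with puromycin and were collected 5 days after infection. The cells were selected populations, so neither knockdown was a clone or a deletion.

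Oct4, Sox2 and Nanog are transcription factors that bind together at enhancers of mESC genes, including their own, and so form a circuit that maintains itself. Sall4 is a zinc finger factor that binds with them, Utf1 is a chromatin-associated protein restricted to pluripotent and germ line cells, Lin28a is an RNA-binding protein that blocks the maturation of let-7 microRNAs, and Fgf4 is the secreted growth factor through which mESCs activate ERK signalling and become ready to differentiate. Utf1 and Fgf4 are classical targets of Oct4 and Sox2, through enhancers that lie downstream of their promoters.

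Array medians lay between 5.58 and 5.78 on the log2 scale. They were 5.66 or more on the arrays numbered 2 and 3 of shMsl1_A, shcontrol_B and shNsl1_B. On all other arrays they were 5.60 or less. The level of the targeted gene went against 2 labels in experiment A. The log2 signal of Msl1 was 8.56, 6.90 and 8.62 for the arrays with the labels shcontrol_A 1 to 3, against 6.77, 9.18 and 7.64 for those labelled shMsl1_A 1 to 3. The array labelled shcontrol_A 2 was thus low and the array labelled shMsl1_A 2 was the highest of all 12, so each direction in experiment A rests on the labels. In experiment B, a probe set of Kansl1 (17547591) had 7.33, 7.30 and 7.36 in the controls and 6.45, 6.56 and 6.71 after Nsl1 knockdown, without overlap. Its other probe set (17270621) had 9.14, 9.36 and 9.52 in the controls and 8.47, 8.92 and 9.30, which overlapped. Other markers of mESCs were above the array medians on every array, with Zfp42 between 10.87 and 11.35 and Tdgf1 between 11.47 and 12.20 on the log2 scale, except Dppa5a, whose probe set stayed between 5.02 and 5.53.

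No member passed the threshold in either knockdown as labelled, but members did not stay constant between arrays. Utf1 moved over 2.19 log2 units, which is 4.56-fold, and 4.31% of all probe sets moved further. Fgf4 moved over 1.21, Lin28a over 1.10, Sall4 over 0.84 and Sox2 over 0.82 log2 units. Pou5f1 and Nanog moved over 0.70 and 0.62 log2 units, less than the median range of all probe sets, which was 0.73. The largest differences followed the replicate number in experiment B and, in experiment A, set 1 array labelled shMsl1_A apart from the other two, as described after the members.

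**Figure D1:**
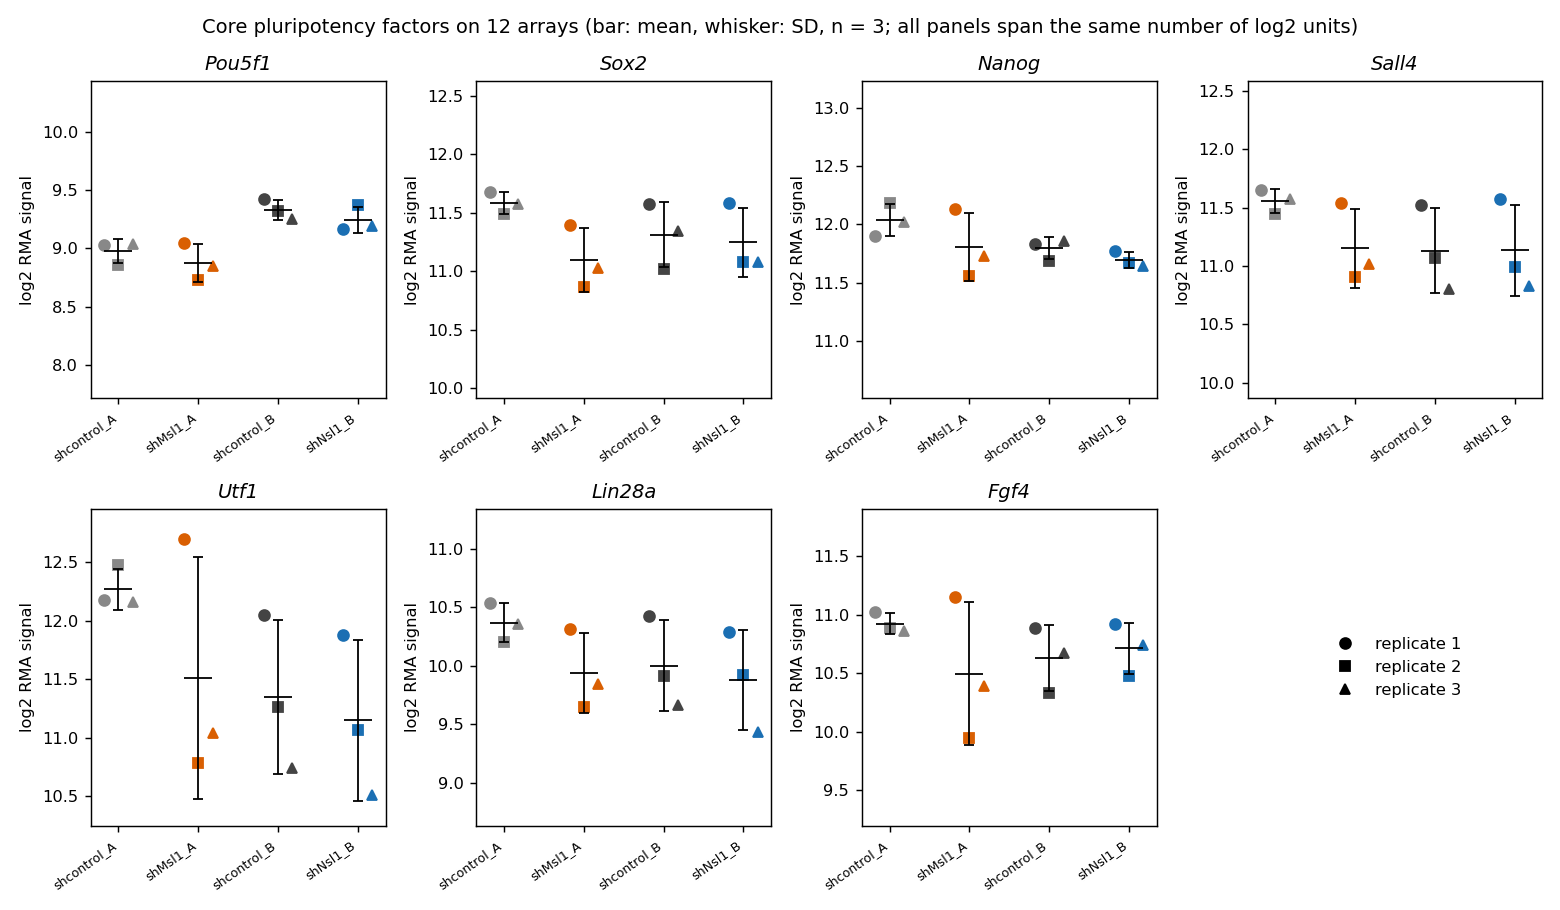
Log2 RMA signal (y axis, 1 panel per gene, all panels spanning the same number of log2 units) of the 7 members in the 4 groups (x axis), with circles, squares and triangles for replicates 1, 2 and 3 and a bar and whisker for the mean and SD of 3 arrays. Utf1 has the widest spread, 10.51 to 12.70, while Pou5f1 lies between 8.73 and 9.42 and is higher in experiment B.

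Pou5f1 encodes Oct4, the POU-domain factor without which the inner cell mass of the embryo does not keep its identity. Its log2 signals (probe set 17337155) were 9.03, 8.86 and 9.04 for arrays labelled shcontrol_A, 9.05, 8.73 and 8.85 on those labelled shMsl1_A, 9.42, 9.32 and 9.25 in shcontrol_B and 9.16, 9.37 and 9.19 in shNsl1_B. All 6 arrays of experiment B were above all 6 of experiment A. Pou5f1 was the only member of the 7 with that order, which 4.49% of all probe sets showed. From high to low, the group means ± SD (n = 3) were 9.33 ± 0.09 in shcontrol_B, 9.24 ± 0.11 in shNsl1_B, 8.98 ± 0.10 in shcontrol_A and 8.87 ± 0.16 in shMsl1_A, and the groups overlapped within each experiment. RefSeq annotates 5 Pou5f1 pseudogenes, and hybridisation of their transcripts to this probe set was not tested. The one pseudogene with a probe set of its own, Pou5f1-rs4, had log2 signals between 4.46 and 5.12. Its signal also was higher on every array of experiment B, where it was 4.78 to 5.12, than on any of experiment A, where it was at most 4.60.

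The promoter of Pou5f1 lacks a TATA box and is known for a GC box close to the start site. RefSeq (GRCm38.p6) has this stretch from 65 to 6 bases before the start, at chr17:35505967-35506026 on the + strand, shown because the GC box (GGGCGG, in capitals) stands in it.
Pou5f1: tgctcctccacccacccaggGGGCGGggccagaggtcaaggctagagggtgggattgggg

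Sox2 is the HMG-box partner with which Oct4 binds DNA. Its log2 signals (17396878) were 11.68, 11.49 and 11.58 for arrays labelled shcontrol_A, against 11.40, 10.86 and 11.03 on those labelled shMsl1_A, and these groups did not overlap. In experiment B they were 11.58, 11.02 and 11.34 in shcontrol_B and 11.59, 11.08 and 11.08 in shNsl1_B, which overlapped fully. The group means ± SD (n = 3) were 11.58 ± 0.09 in shcontrol_A, 11.32 ± 0.28 in shcontrol_B, 11.25 ± 0.29 in shNsl1_B and 11.10 ± 0.27 in shMsl1_A, and no neighbours in this order were separated by more than their spread. The stretch of the Sox2 promoter from 130 to 71 bases before the start, at chr3:34649865-34649924 on the + strand, holds an octamer-like motif, the sequence that POU factors such as Oct4 read, on the other strand (TTTGCAT, whose reverse ATGCAAA is in capitals).
Sox2: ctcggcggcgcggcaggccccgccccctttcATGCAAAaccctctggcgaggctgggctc

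Nanog is the homeodomain factor whose level fluctuates between mESCs. Its log2 signals (17462694) were 11.90, 12.18 and 12.02 for arrays labelled shcontrol_A, against 12.13, 11.56 and 11.73 on those labelled shMsl1_A. They were 11.84, 11.69 and 11.86 in shcontrol_B and 11.78, 11.67 and 11.64 in shNsl1_B. The highest group mean ± SD was 12.04 ± 0.14 in shcontrol_A, above 11.81 ± 0.29 in shMsl1_A, 11.80 ± 0.09 in shcontrol_B and 11.70 ± 0.07 in shNsl1_B (n = 3 each). The 3 arrays labelled shcontrol_A were above every array of experiment B, an order whose share of all probe sets was not taken. Neighbours in the order of the means overlapped. RefSeq lists 2 Nanog pseudogenes, which have no probe set named for them alone, so some cross-hybridisation cannot be told from Nanog signal.

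The Nanog promoter carries an octamer-like motif and a Sox-like motif (ACAATG, the sequence that Sox2 reads) side by side, which is the textbook site for a pair of Oct4 and Sox2. It is shown from 110 to 31 bases before the start, at chr6:122707379-122707458 on the + strand, with the composite motif (TTTGCATNACAATG) in capitals.
Nanog: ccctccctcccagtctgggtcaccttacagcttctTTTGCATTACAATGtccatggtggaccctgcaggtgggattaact
Among 32851 RefSeq promoter windows, searched on both strands over the 250 bases before the start, 4.12% held the octamer-like motif and 10.7% the Sox-like motif. The composite, which contains both, stood in 2 windows, and both belong to Nanog, since it has 2 annotated starts upstream of which the same site lies. A match of letters is a description and not a measured binding site.

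Sall4 shares many binding sites with Oct4 and Nanog. On its main probe set (17394865) the log2 values were 11.65, 11.44 and 11.57 for arrays labelled shcontrol_A, against 11.54, 10.90 and 11.01 on those labelled shMsl1_A. In experiment B they were 11.52, 11.07 and 10.80 in shcontrol_B and 11.58, 11.00 and 10.83 in shNsl1_B. The values of the same replicate number lay within 0.08 of each other in experiment B, while the replicate numbers were up to 0.73 apart. The group mean ± SD (n = 3) was 11.55 ± 0.10 in shcontrol_A and 11.15 ± 0.34, 11.13 ± 0.36 and 11.13 ± 0.39 in shMsl1_A, shcontrol_B and shNsl1_B, and all neighbours in this order overlapped. A second probe set of Sall4 (17379992) lay between 4.92 and 5.97, near the array medians.

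Utf1 showed the widest spread. Its log2 signals (17484454) were 12.18, 12.47 and 12.16 for arrays labelled shcontrol_A but 12.70, 10.79 and 11.05 on those labelled shMsl1_A. They were 12.05, 11.26 and 10.74 in shcontrol_B and 11.88, 11.07 and 10.51 in shNsl1_B. The array labelled shMsl1_A 1 was thus the highest of all 12 and the array labelled shMsl1_A 2 among the lowest, and in both groups of experiment B the arrays numbered 1, 2 and 3 stood in the same order. The group means ± SD (n = 3) were 12.27 ± 0.18 in shcontrol_A, 11.51 ± 1.04 in shMsl1_A, 11.35 ± 0.66 in shcontrol_B and 11.15 ± 0.69 in shNsl1_B. Neighbours in this order overlapped, whereas shcontrol_A was above every array of experiment B, as it was for Nanog. The share of all probe sets with shcontrol_A above every array of experiment B was not taken.

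The Utf1 promoter window held 4 GC boxes, of which the stretch from 150 to 71 bases before the start, at chr7:139943706-139943785 on the + strand, shows 3 (GGGCGG, in capitals, the first pair sharing 1 base). The Fgf4 window held 2, shown from 220 to 161 bases before the start at chr7:144861166-144861225 on the + strand.
Utf1: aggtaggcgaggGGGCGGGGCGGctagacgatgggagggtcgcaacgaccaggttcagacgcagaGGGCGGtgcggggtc
Fgf4: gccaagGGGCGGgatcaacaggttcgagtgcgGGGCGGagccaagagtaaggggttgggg
The GC box, which Sp family factors read, was searched because it stood out in these sequences once they had been seen. It was present in the windows of Pou5f1, Sox2, Utf1 and Fgf4, 4 of the 6 members with a window, and in 32.7% of all windows. The letters of the octamer-like and Sox-like motifs were not in the windows of Utf1 and Fgf4.

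Lin28a had log2 signals (17431166) of 10.54, 10.21 and 10.36 for arrays labelled shcontrol_A, against 10.31, 9.65 and 9.85 on those labelled shMsl1_A. In experiment B they were 10.43, 9.91 and 9.67 in shcontrol_B and 10.29, 9.92 and 9.43 in shNsl1_B, again with the arrays numbered 1 on top and those numbered 3 lowest in both groups. The group means ± SD (n = 3) were 10.37 ± 0.17 in shcontrol_A, 10.00 ± 0.39 in shcontrol_B, 9.94 ± 0.34 in shMsl1_A and 9.88 ± 0.43 in shNsl1_B, and neighbours overlapped. A Sox-like motif stands on the other strand of its promoter window, from 105 to 76 bases before the start (chr4:134018892-134018921, on the - strand, with the reverse letters CATTGT in capitals).
Lin28a: gggttgggtCATTGTcttttagaatttggg

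Fgf4 had log2 signals (17485437) of 11.03, 10.89 and 10.86 for arrays labelled shcontrol_A, against 11.15, 9.95 and 10.39 on those labelled shMsl1_A. They were 10.89, 10.33 and 10.67 in shcontrol_B and 10.92, 10.48 and 10.74 in shNsl1_B. The arrays numbered 2 were lowest in 3 of the 4 groups, the exception being shcontrol_A. The group means ± SD (n = 3) were 10.92 ± 0.09 in shcontrol_A, 10.71 ± 0.22 in shNsl1_B, 10.63 ± 0.28 in shcontrol_B and 10.50 ± 0.61 in shMsl1_A, and neighbours overlapped.

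The first comparison asked whether depletion of Nsl1 changed the pluripotency factors. It changed none of the 7 by the test used, limma's moderated test adjusted over all probe sets at 0.05. The background was 0% of all probe sets called, so this comparison called nothing at all. The largest difference was for Utf1, at -0.20 ± 0.45 (log2 fold change ± SE), and Fgf4 and Sall4 were at 0.08 ± 0.18 and 0.00 ± 0.26. Pou5f1 was at -0.09 ± 0.10, Nanog at -0.10 ± 0.09, Sox2 at -0.07 ± 0.20 and Lin28a at -0.12 ± 0.28, and every adjusted p was 1.00. The 95% interval of Pou5f1 ran from -0.33 to 0.16 and that of Nanog from -0.33 to 0.13, whereas that of Utf1 ran from -1.31 to 0.91 in this unpaired fit. The median of the members was -0.09, beside 0.01 for all probe sets, with 5 members below 0 and 2 above. At an unadjusted p under 0.05, 0 of 7 members passed, against 5.26% of all probe sets, and the rank method of the study (FCROS) also called 0, beside 5.21% of all probe sets. No member had all shNsl1_B arrays below all shcontrol_B arrays, an order that 5.64% of probe sets showed.

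The arrays of experiment B can be compared in pairs of the same number. Utf1 was lower after knockdown in all 3 pairs, by log2 differences of -0.17, -0.20 and -0.23. Nanog was also lower in each pair, with -0.06, -0.02 and -0.22, and Fgf4 was higher in each, with 0.03, 0.15 and 0.07. The share of all probe sets with the same sign in all 3 pairs was not taken, so these signs are only a description. With the pair as a block, the SE of the Utf1 difference was 0.08 in place of 0.45 and its 95% interval ran from -0.40 to -0.01. Its adjusted p was 0.324, and no member was called, beside 0% of all probe sets. At an unadjusted p under 0.05, 1 of 7 members (Utf1) passed with the block, against 14.9% of all probe sets.

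The second comparison asked the same of Msl1, as labelled. All 7 members had a mean below the controls, but none passed the threshold, and the background was again 0% of all probe sets called. The log2 fold change ± SE was -0.49 ± 0.15 for Sox2, -0.76 ± 0.50 for Utf1, -0.43 ± 0.19 for Lin28a, -0.43 ± 0.30 for Fgf4, -0.40 ± 0.18 for Sall4, -0.23 ± 0.17 for Nanog and -0.10 ± 0.11 for Pou5f1, with adjusted p between 0.622 and 0.774. Their median was -0.43, beside 0.00 for all probe sets. At an unadjusted p under 0.05, 1 of 7 members passed (Sox2), against 7.65% of all probe sets, and FCROS also called 1, the same gene, beside 3.02% of all probe sets. Sox2 was the only member with all arrays labelled shMsl1_A below all those labelled shcontrol_A, which 5.78% of probe sets showed, and its exact permutation test gave p = 0.1 (two-sided), the smallest that 3 arrays against 3 allow.

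This comparison depended on 1 array. The array labelled shMsl1_A 1 was above all arrays labelled shcontrol_A for Utf1, Fgf4 and Pou5f1, within their range for Nanog, Sall4 and Lin28a and below them for Sox2, whereas those labelled shMsl1_A 2 and 3 were low for every member. Without the array labelled shMsl1_A 1, 5 of 7 members were called lower, beside 16.4% of all probe sets called in either direction and 6.02% called lower. Utf1 was then at -1.35 (adjusted p = 0.00446), or 39.1% of the control level, and Fgf4 at -0.76 (0.0239), Sox2 at -0.64 (0.0137), Lin28a at -0.62 (0.0285) and Sall4 at -0.59 (0.0154). Nanog at -0.39 (adjusted p = 0.0776) and Pou5f1 at -0.19 (0.273) were not called. Leaving out any other single array of experiment A called 0 members, and the shares of all probe sets called in those fits were not taken. The array labelled shMsl1_A 1 stood out by the same member values that were then tested. The calls are thus no separate test of Msl1. They appeared once the array with the lowest Msl1 signal of all 12 (6.77) was dropped. Of the 2 arrays that remain, the one labelled shMsl1_A 2 had the highest Msl1 signal of all 12. Leaving out instead both arrays whose Msl1 signal went against their label gave 0 calls, beside 0% of all probe sets, and values between -0.03 (Nanog) and -0.42 (Sox2), with Utf1 at -0.30.

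**Figure D2:**
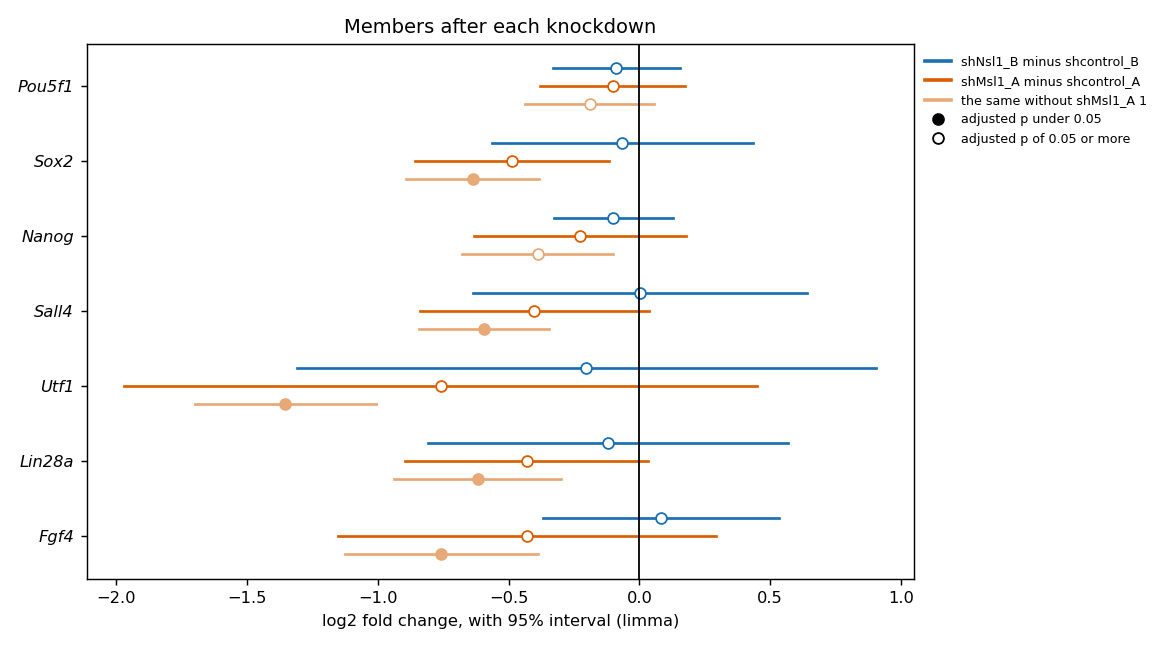
Log2 fold change (x axis) of each member (y axis) with its 95% interval from limma after Nsl1 knockdown (blue), after Msl1 knockdown as labelled (orange) and without the array labelled shMsl1_A 1 (light orange), with filled points for an adjusted p under 0.05. All blue and orange points are open, and 5 light orange points, from -0.59 for Sall4 to -1.35 for Utf1, are filled. The array left out for the light orange points was set apart by its values for these same members.

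A contrast of the Nsl1 effect with the Msl1 effect was fitted, and no member was called, beside 0.00967% of all probe sets. At an unadjusted p under 0.05, 0 of 7 members passed, against 6.45% of all probe sets, and no other tool was run on this contrast. With the replicate number as a block in limma, Sox2 (unadjusted p = 0.0296) and Sall4 (0.0376) passed that level. Without the array labelled shMsl1_A 1, Fgf4 passed it (0.0100). No member was called in these fits, and their unadjusted shares of all probe sets were not taken. In the main fit, the members compared as follows. The difference, Nsl1 effect minus Msl1 effect on the log2 scale, was above 0 for all 7 members. It ran from 0.01 ± 0.15 (SE) for Pou5f1 to 0.56 ± 0.73 for Utf1, with adjusted p between 0.860 and 0.991.

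Both experiments used a non-target control, and its arrays differed between them. No member passed the threshold between shcontrol_B and shcontrol_A, although 7.81% of all probe sets did. Pou5f1 came nearest, at 0.35 ± 0.10 (log2 difference ± SE, adjusted p = 0.0645), and was the only 1 of 7 with an unadjusted p under 0.05, against 25.8% of all probe sets. The other 6 members were lower in the controls of experiment B, from -0.24 ± 0.14 for Nanog to -0.92 ± 0.52 for Utf1. Single arrays moved these values. Utf1 was at -1.27 without the array shcontrol_B 1 and at -0.61 without shcontrol_B 3, and Sall4 and Lin28a went from -0.62 to -0.26 and from -0.58 to -0.20 between the same 2 settings. Sox2 and Fgf4 were at -0.40 and -0.43 without shcontrol_B 1 but at -0.12 and -0.15 without shcontrol_B 2, and Nanog ran from -0.31 without shcontrol_A 1 to -0.17 without shcontrol_A 2. No member was called in any of these fits, whose shares of all probe sets called were not taken. The controls did not overlap for 3 of 7 members, Pou5f1, Nanog and Utf1, and 35.9% of all probe sets did not overlap in one direction or the other. Experiment and any batch cannot be told apart in this contrast.

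For Utf1, Sall4, Lin28a, Sox2 and Fgf4, the replicate number carried larger differences than the knockdown in experiment B. For Pou5f1 and Nanog, differences by number and by knockdown were of similar size. Tested by a moderated F over the 3 numbers with the group in the fit, 3 of 7 members were called, beside 14.6% of all probe sets. Utf1 fell by 0.80 log2 units from the arrays numbered 1 to those numbered 2 and by 1.34 to those numbered 3 (SE 0.09, adjusted p = 0.00816), which is a 2.53-fold difference. Sall4 fell by 0.51 and 0.73 (SE 0.10, adjusted p = 0.0226) and Lin28a fell by 0.44 and 0.81 (SE 0.11, adjusted p = 0.0239). Sox2 was at -0.53 and -0.37 (adjusted p = 0.0748) and Fgf4 at -0.50 and -0.20 (adjusted p = 0.0550). Pou5f1 was at 0.05 and -0.07 (adjusted p = 0.758) and Nanog at -0.13 and -0.05 (adjusted p = 0.682). For 5 of the 7 members, all but Pou5f1 and Nanog, both arrays numbered 1 were above the 4 others, an order that 17.5% of all probe sets showed. With the arrays centred on their medians, or with an intensity trend, Sox2 and Fgf4 were called as well, which made 5 of 7, beside 18.4% of all probe sets on centred arrays and 17.5% with the trend. Leaving out any 1 of the 6 arrays left Utf1 as the only member called. The background was then 9.52%, 7.22% and 5.85% of all probe sets without shcontrol_B 1, 2 and 3, and 5.41%, 7.3% and 3.41% without shNsl1_B 1, 2 and 3.

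In experiment A, no member was called for the replicate number, and the background was 0% of all probe sets. At an unadjusted p under 0.05, 0 of 7 members passed, against 3.56% of all probe sets, and no other tool was run. Sox2, Sall4 and Lin28a were highest on the arrays numbered 1 and lowest on those numbered 2 in both groups, while the order of the other 4 members differed between the groups. The Utf1 signal of the arrays labelled shcontrol_A varied over 12.16 to 12.47, whereas that of the arrays labelled shMsl1_A varied over 10.79 to 12.70.

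**Figure D3:**
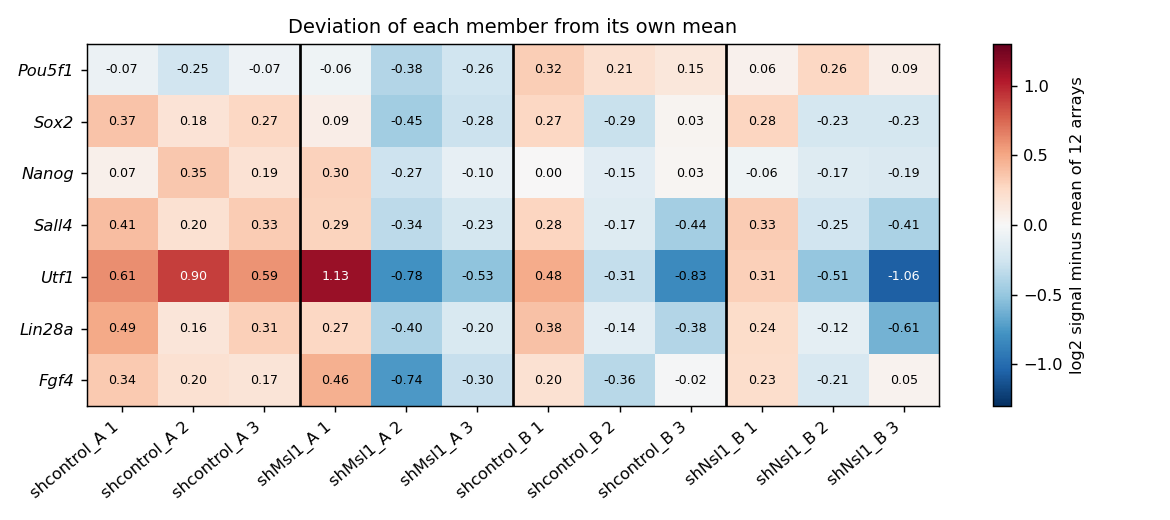
Log2 signal of each member (rows) on each of the 12 arrays (columns) minus its own mean over the 12 arrays, in red above and blue below that mean, with the value in each cell. The arrays labelled shMsl1_A 2 and 3 and the arrays numbered 2 and 3 of experiment B are mostly blue for Sox2, Sall4, Utf1 and Lin28a, with -1.06 for Utf1 on shNsl1_B 3 as the lowest value, while the Pou5f1 row separates experiment A from experiment B.

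Markers of fibroblasts, the kind of cell used as feeders, moved the other way on these same arrays. The mean log2 signal of 34 measured markers, of 36 listed, was 7.25, 7.91 and 7.76 in shcontrol_B and 7.13, 8.07 and 8.00 in shNsl1_B. It was 7.23, 6.95 and 7.16 for arrays labelled shcontrol_A and 7.06, 7.96 and 7.78 on those labelled shMsl1_A. The mean of the 7 members on the same arrays was 11.10, 10.66 and 10.62 in shcontrol_B, 11.03, 10.65 and 10.49 in shNsl1_B, 11.14, 11.08 and 11.08 for shcontrol_A and 11.18, 10.35 and 10.56 for shMsl1_A. On 6 arrays, those numbered 2 and 3 of shMsl1_A, shcontrol_B and shNsl1_B, the members were thus low and the markers high. The array medians were also higher on these 6 arrays, at 5.66 or more, than on the others, at 5.60 or less.

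Across the replicate numbers of experiment B, 17 of the 34 markers were called higher on the arrays numbered 2 and 3 and 0 lower, and their median difference was 0.69. Here and for the lists that follow, a gene was counted as higher or lower where the F was called and the arrays numbered 2 and those numbered 3 both differed from number 1 in that direction, beside the same 14.6% of all probe sets called. A further 2 fibroblast markers were called with opposite signs for the 2 numbers. Col1a1, the main chain of type I collagen, had 8.10, 9.38 and 9.81 in shcontrol_B and 7.59, 9.54 and 9.93 in shNsl1_B. Not every fibroblast marker behaved in this way, since Dcn stayed between 5.09 and 5.69 on all 12 arrays. After Nsl1 knockdown the median of the markers was 0.05 with 21 of 34 above 0, and after Msl1 knockdown as labelled it was 0.42 with 30 of 34 above 0, with 0 called in both. Without the array labelled shMsl1_A 1, which was set apart by the members' values, 16 were called higher and 0 lower. In that fit, 16.4% of all probe sets were called in either direction and 6.02% lower. In RNA from a whole culture, fewer cells of a type and less RNA per cell cannot be told apart, and the part of the fibroblast markers in the members' differences was not tested.

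**Figure D4:**
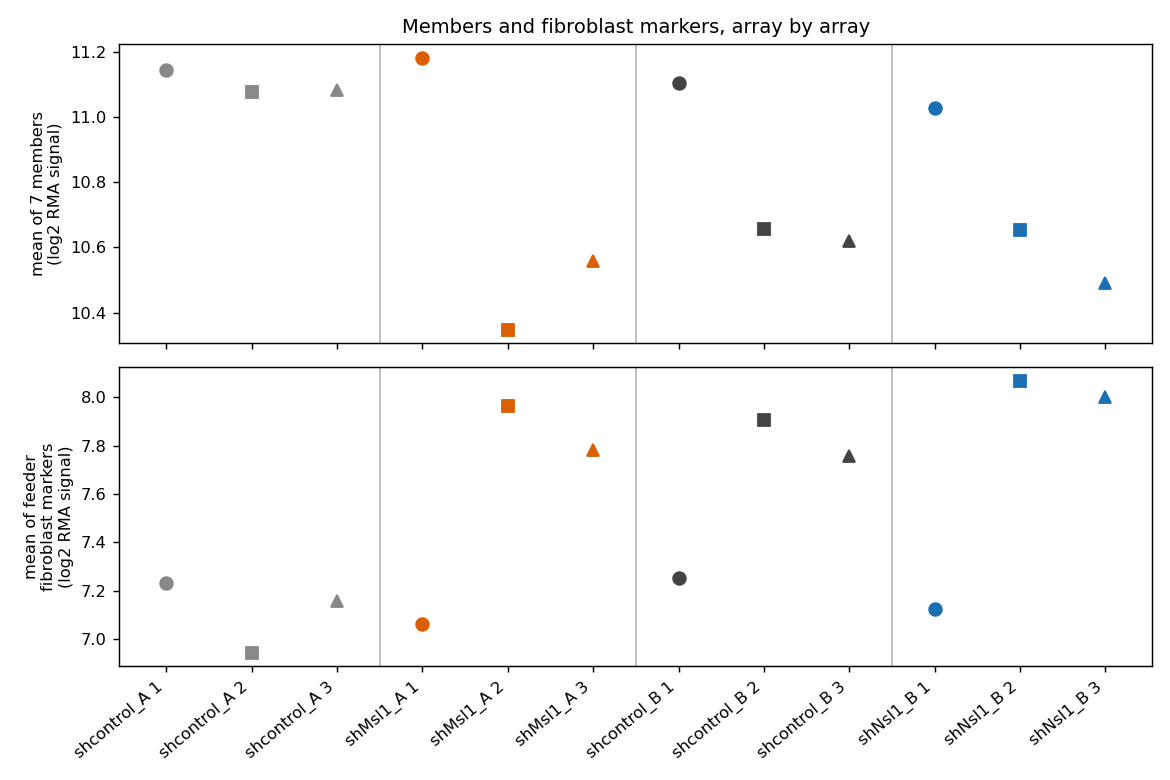
Mean log2 RMA signal of the 7 members (upper panel, y axis) and of the 34 feeder fibroblast markers (lower panel, y axis) on each of the 12 arrays (x axis), with circles, squares and triangles for replicates 1, 2 and 3. The 6 arrays with a members' mean of 11.03 or more have a marker mean of 7.25 or less, and the other 6 have 7.76 or more.

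Other genes of the pluripotency network were mostly lower where the members were lower. Of 36 measured genes, 13 were called lower, 2 higher and 1 with opposite signs on the arrays numbered 2 and 3 of experiment B, with a median of -0.33. The median of all probe sets was -0.0016 for the arrays numbered 2 and -0.0028 for those numbered 3, each minus the arrays numbered 1. Tcf7l1, a repressor controlled by Wnt signalling, was at -0.73 and -0.85 (arrays numbered 2 and arrays numbered 3, each minus number 1, SE 0.10, adjusted p of the F = 0.0152). Mycn, a Myc family factor, was at -0.63 and -1.24 (SE 0.11, adjusted p = 0.0106). Without the array labelled shMsl1_A 1, 22 of the 36 were called lower and 1 higher. In that fit, 6.02% of all probe sets were called lower and 16.4% in either direction. After Nsl1 knockdown none was called and their median was 0.00.

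Proteins that purify with Oct4 were mostly subunits of chromatin complexes, and of their 26 genes 6 were called lower and 0 higher by replicate number in experiment B, with a median of -0.31. Rcor2, a partner of the demethylase Lsd1, was at -0.76 and -0.83 (SE 0.11, adjusted p of the F = 0.0184) and Mbd3, a NuRD subunit, at -0.55 and -0.86 (SE 0.11, adjusted p = 0.0210), for the numbers 2 and 3 minus 1.

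Genes of FGF and ERK signalling, downstream of Fgf4, went both ways, with 6 of 23 called lower, 3 higher and 1 with opposite signs, and a median of -0.18. The last was Fgf5, at 0.02 on the arrays numbered 2 and -1.48 on those numbered 3, each minus number 1. The F had an adjusted p of 0.00887, with an SE of 0.13. Within each group, Fgf5 was thus low on number 3 alone. Its shNsl1_B arrays (8.07, 8.29 and 6.72) were all above its shcontrol_B arrays (6.70, 6.52 and 5.09), though 6.72 and 6.70 nearly touched. The share of all probe sets with that order was not taken. The Nsl1 knockdown difference of Fgf5 was 1.59 ± 0.58 (SE) and was not called by limma (adjusted p = 0.885). On the arrays numbered 2 and 3, each minus number 1, Ier3, an immediate early gene, was at 0.88 and 1.31 (SE 0.12, adjusted p = 0.0106). The receptor gene Fgfr1 was at 0.32 and 0.84 (SE 0.10, adjusted p = 0.0174). Of 18 measured genes of the Lin28 and let-7 axis, 2 were called higher and 1 lower, which is 16.7% beside 14.6% of all probe sets and thus near the background. The let-7 target Hmga2 was at 1.10 and 1.48 (SE 0.15, adjusted p = 0.0135) and Tut7, which adds uridines to let-7 precursors, at 0.80 and 0.85 (SE 0.10, adjusted p = 0.0138).

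Among markers of other states, those of the epiblast and primed cells had 6 of 13 genes called lower, 1 higher and 1 (Fgf5) with opposite signs on the arrays numbered 2 and 3, with a median of -0.70. Otx2, a factor of the primed state, was at -1.11 and -1.81 (SE 0.10, adjusted p of the F = 0.00707) and the DNA methyltransferase gene Dnmt3b at -0.89 and -1.56 (SE 0.10, adjusted p = 0.00785). Of 16 trophectoderm markers 5 were called higher and 1 lower, of 18 primitive endoderm markers 6 higher and 0 lower, of 17 neural progenitor markers 0 higher, 5 lower and 1 (Nefl) with opposite signs, and of 13 mesoderm markers 3 higher and 0 lower. After Nsl1 knockdown, the epiblast and primed markers had a median of 0.29, with 8 above 0, 5 below and 0 called.

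Among themselves, the members other than Pou5f1 moved together when all 12 arrays were pooled, and Pou5f1 did so within experiment A. Over the 12 arrays, Pearson's r of the log2 signals was 0.97 between Sall4 and Lin28a, 0.93 between Sall4 and Utf1 and 0.91 between Utf1 and Lin28a. The lowest value among the 6 was 0.64, between Nanog and Lin28a. Between Pou5f1 and the others r ran from -0.17 to 0.23 over all 12 arrays, whose level of Pou5f1 differed between the experiments. Over the 6 arrays of experiment A it ran from 0.66 (Nanog) to 0.91 (Lin28a), and over the 6 of experiment B from -0.29 (Fgf4) to 0.41 (Lin28a). Among the other 6 members, the lowest r was 0.746 within experiment A (Nanog and Lin28a) and 0.357 within experiment B (Nanog and Sall4). These are descriptions over arrays that share group, experiment and replicate number.

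Of 11652 genes with a mean log2 signal over 6, the one whose pattern was most like that of Utf1 was Zfp296 (r = 0.99 over 12 arrays), followed by Rpp25l and Cherp. Gid8, Coil and Fbxo31 came closest to Sall4 (0.98 each), and Coprs, Gid8 and Gemin5 to Lin28a (0.98 each), so Gid8 stood near both. Klf5, a factor of the naive network, came closest to Nanog (0.97), before Blvrb and Nme4. Helb, Pask and Itpk1 were most like Sox2 (0.97, 0.97 and 0.96), Smoc1, Fanci and Gab1 most like Fgf4 (0.95, 0.95 and 0.94) and Cfap77, Golph3 and Pms2 most like Pou5f1 (0.95, 0.93 and 0.93).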

How the data were processed

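RNA was hybridised to GeneChip Mouse Gene 2.0 ST arrays. The authors made the deposited log2 signals by RMA (robust multi-array average) in Expression Console 1.1 at its defaults, which equalises the distributions of the arrays, so a change shared by most genes would be hidden. The deposited values of 41345 probe sets were used unfiltered, named by the platform's annotation, with the probe set of the highest mean for a gene with several. Arrays have no read depth, and precision is limited by how many there are.

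Groups were compared with limma 3.58.1 in R 4.3.3 (lmFit, eBayes, two-sided), adjusted by Benjamini-Hochberg across all probe sets at a threshold of 0.05, against the controls of the same experiment. The difference of the effects and the 2 control groups were tested in a fit of all 12 arrays, and replicate numbers by a moderated F with the group as covariate. Alternatives were a replicate block, 1 fit of all arrays, centring, a filter at a mean of 5, an intensity trend, the mean over probe sets, leaving out arrays, and FCROS (rewritten, 9 pairs, trim 0.25, limits 0.025 and 0.975). The scripts were tested on simulated data.

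Same-numbered arrays of experiment B deviated together from their group means (r of 0.767, 0.326 and 0.704 over probe sets), so their numbers were taken as pairs; those of experiment A did not (0.05, -0.23 and 0.21). The methods call the replicates independent and biological, which the labels leave unstated, so p-values measure only the spread between arrays, which may be technical.

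The members, and 12 lists of 233 genes (218 measured), were chosen with earlier results of these data known. Beside all members, the text names the targeted genes, up to 4 genes per list with the smallest p, and the 3 genes most correlated with each member; Zfp42, Tdgf1, Dppa5a and Dcn come from the marker lists and were picked after their values were seen. Promoters are from RefSeq (GRCm38.p6), in which 6 of the 7 members matched; Sall4 was only named.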

Additional observations from a re-analysis of the deposited data

How the results depend on the processing

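For Nsl1 knockdown, 0 members were called under every alternative run, including the replicate block. Several small differences changed sign. Sall4 was at -0.022 on arrays centred on their medians. Leaving out 1 array at a time gave -0.24 to 0.066 for Sox2, -0.57 to 0.15 for Utf1, -0.32 to 0.10 for Lin28a, -0.22 to 0.20 for Sall4 and -0.068 to 0.21 for Fgf4, while Pou5f1 and Nanog stayed below 0, at -0.15 to -0.04 and -0.15 to -0.07. For Msl1 knockdown as labelled, the replicate block called 0 members, and FCROS called 1, beside 3.02% of all probe sets. Leaving out 1 array gave 0 to 5, with 5 only without the array labelled shMsl1_A 1, where 16.4% of all probe sets were called. All 7 members stayed below 0 in every alternative run. For the difference between the effects, Pou5f1 was at -0.00090 and Nanog at -0.067 without both arrays whose Msl1 signal went against the label, and Pou5f1 ran from -0.059 to 0.10 without 1 array. For the replicate number in experiment B, 5 members were called with an intensity trend and 5 on centred arrays, beside 17.5% and 18.4% of all probe sets. Without a group term 3 were called, and the share of all probe sets is not given for that fit. When any 1 array was left out, an alternative chosen after seeing the data, 1 was called, beside 3.41% to 9.52% of all probe sets. Fits without 1 array hold fewer arrays, and the cause of the other changes was not tested. The numbers of experiment A did not pair its arrays, and the block changed no call there. With the block, limma's unadjusted p for Msl1 knockdown as labelled was 0.0123 for Sox2, 0.0184 for Lin28a and 0.0383 for Sall4. It was 0.134 or more for the other members, and the share of all probe sets under 0.05 was not taken for this fit. With 3 arrays a group, the exact test cannot go below 0.1.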
